A study of Homo sapiens with 12 samples.

Results

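The difference between the hypoxia responses of FG and L3.6pl, 2 cell lines from human pancreatic cancer, was examined gene by gene. For each gene it is the interaction (L3.6pl hypoxia minus L3.6pl normoxia) minus (FG hypoxia minus FG normoxia) on the log2 scale. A positive value means that transcript levels shifted further upward, or less far downward, in L3.6pl, and a negative value the same for FG. All 12 arrays of the series entered the contrast, and all 19775 genes with a probe set naming that gene alone were tested, each through its brightest probe set, by the mean of the 12 arrays.

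FG and L3.6pl are established lines, and the series title sets them apart by metastatic potential. Each of the 4 groups has 3 arrays, numbered as replicates 1 to 3. Hypoxic cultures spent their last 24 h at 1% oxygen, the normoxic cultures received no treatment, and both kinds were grown from frozen stock in serum-containing medium. The labels name no genetic change or drug in any group. Each line is a single line and stands for itself only, and the labels do not say that replicates are separate cultures, so the p-values measure the spread between these arrays, which may be technical.

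Cells sense oxygen through prolyl hydroxylases that mark the alpha subunits of the hypoxia-inducible factors (HIF) for destruction while oxygen is available. When oxygen falls, the subunits are stabilised, pair with ARNT and bind short DNA elements with the core sequence ACGTG or GCGTG near genes for glycolysis, angiogenesis and oxygen sensing itself. Pancreatic ductal tumours are known for poor perfusion, and their cells are known to meet low oxygen often. The series title names metastatic potential, and the interaction addresses whether lines that differ in it also differ in what hypoxia changes.

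Values are log2 of the normalized array intensities. Arrays of 1 group correlated with each other at Pearson's r across genes of 0.974 to 0.996, and no arrays held identical values. The array of FG normoxia replicate 1 and that of L3.6pl hypoxia replicate 3 lay farthest from their group means, at root mean square deviations of 0.324 and 0.312, against 0.131 to 0.239 for the other arrays. Results are given with and without them, together with L3.6pl normoxia replicate 1, which shares its number with the first. The 7 ductal epithelial markers KRT7, KRT8, KRT18, KRT19, EPCAM, CDH1 and MUC1 averaged 10.19 to 13.0 over the arrays, and their group means ran from 11.24 to 11.73. Of 12 stromal and blood cell markers, 11 were measured, at 3.14 to 7.35, with group means from 4.98 to 5.36, and none of them was called in either fit described here.

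Across genes, which are not independent replicates, the hypoxia effects of the 2 lines correlated at r = 0.705. The median interaction was 0.01, and the middle 90% of genes lay between -0.49 and 0.60. In limma without any pairing of replicates, 5 genes (0.0253% of those tested) had an interaction at an adjusted p below 0.05. MAOA, SERTAD4 and RAB31 had the higher hypoxia effect in L3.6pl (0.0152%), and ATF3 and CREB5 had the higher effect in FG (0.0101%). At an unadjusted p below 0.05 there were 1427 genes. Without both normoxia replicates 1 the count was 5 (2 higher in L3.6pl and 3 in FG), and without the 3 arrays that stood apart it was 19 (11 and 8). Leaving out 1 array at a time gave between 2 and 23 genes; the highest count came without replicate 3 of FG normoxia, and the lowest without replicate 2 of FG hypoxia or replicate 2 or 3 of L3.6pl normoxia.

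Arrays of the 2 lines with the same number and oxygen state deviated from their group means together. The correlation of these deviations was 0.735, 0.529 and 0.675 in normoxia and 0.358, 0.444 and 0.462 in hypoxia for replicates 1, 2 and 3. Pairs of unlike number gave -0.653 to 0.262. Deviations from a group mean cancel out within the group, so positive values for same-numbered pairs force the others to be negative on average. Pairs of unlike number are thus no independent baseline. In a limma fit with the 6 pairs as a block, the estimates stayed the same and the median standard error of the interaction was 0.151 in place of 0.204. This fit called 703 genes (3.55%), of which 503 had the higher hypoxia effect in L3.6pl (2.54%) and 200 in FG (1.01%), and all 5 genes called without the block were among them.

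**Figure D1:**
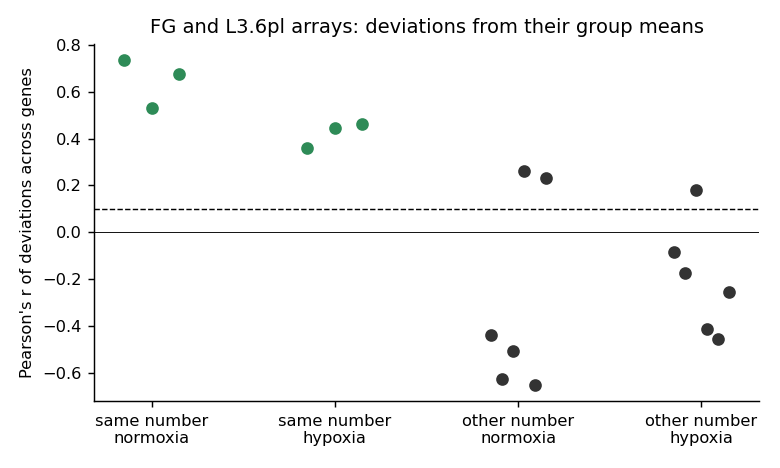
Pearson's r across genes between deviations from the group mean of 1 FG and 1 L3.6pl array of the same oxygen state; each point is 1 pair of arrays, and the dashed line is at 0.1. The 6 same-numbered pairs lay between 0.358 and 0.735, and pairs of unlike number between -0.653 and 0.262. The latter are no independent baseline, because deviations cancel out within a group.

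The count with the block rested on the pairs unequally. Without 1 pair it was 334 (hypoxia 1), 54 (hypoxia 2), 1239 (hypoxia 3), 271 (normoxia 1), 16 (normoxia 2) or 80 (normoxia 3). All 703 genes kept their sign in each of these fits. This had to follow, because their hypoxia and normoxia pair differences did not overlap. In 14 genes the call was kept whichever pair was left out: ATF3, CEL, CREB5, CYS1, EDN2, ID3, ITGB8, IZUMO4, MAOA, NBPF3, RIMKLB, SERTAD4, SMAD7 and STC1. With the pairs as a random block the count was 366, which held 313 of the 703. A single gene's pairs can also be read directly. The L3.6pl minus FG differences of the 3 hypoxia pairs lay wholly above those of the 3 normoxia pairs, or wholly below them, in all 703 genes and in 23.4% of all genes tested (14.1% above and 9.32% below). The 703 genes were called on these same differences, so their separation adds no support to the calls. An exact test of 3 against 3 cannot give a p below 0.1.

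**Figure D2:**
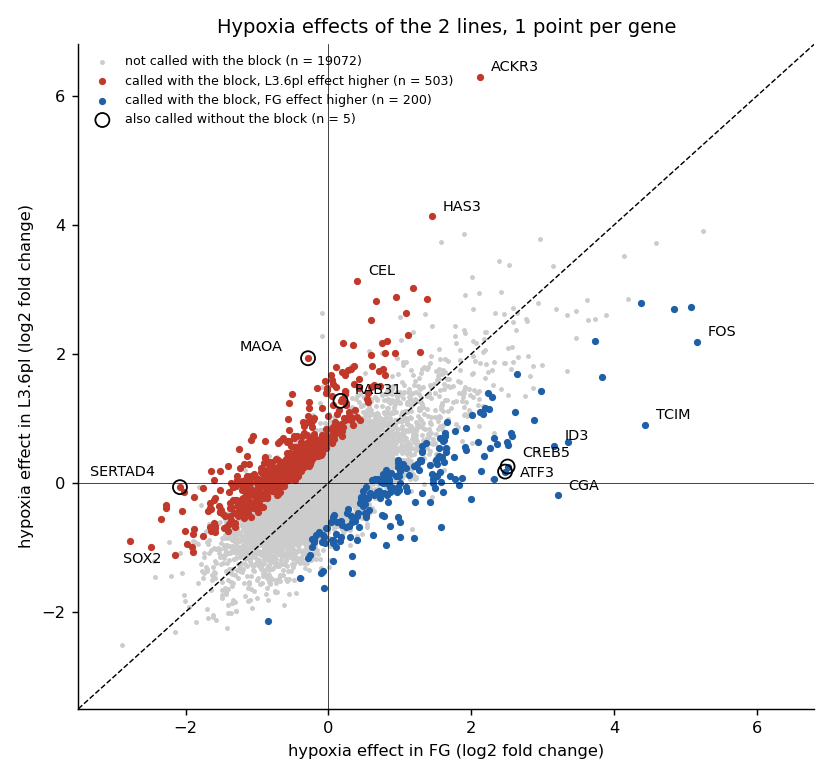
Hypoxia effect (log2 fold change, mean of 3 hypoxia arrays minus mean of 3 normoxia arrays) in FG on the x axis and in L3.6pl on the y axis, 1 point per gene; the dashed line marks equal effects. Coloured points are the 503 and 200 genes called in the interaction with the block, and the 5 circled genes were also called without it.

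ATF3 and CREB5 had large hypoxia effects in FG and effects near 0 in L3.6pl, and the difference passed in both fits. ATF3 encodes a stress-induced transcription factor of the ATF/CREB family that represses or activates genes as a homodimer or with JUN proteins. Its log2 intensity was 6.31, 5.88 and 5.95 in FG normoxia replicates 1 to 3 and 8.62, 8.47 and 8.47 in FG hypoxia, against 5.77, 5.71 and 5.96 in L3.6pl normoxia and 6.05, 6.18 and 5.75 in L3.6pl hypoxia. All 3 FG hypoxia arrays were above every other array, and the other groups overlapped. The hypoxia effect was 2.47 in FG and 0.18 in L3.6pl, an interaction of -2.30 ± 0.202 (limma standard error), or a 4.91-fold weaker induction in L3.6pl (adjusted p = 0.00259, with the block 0.00403). The other 2 ATF3 probe sets gave -1.97 and -2.45.

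CREB5, which encodes a CREB-family factor that binds cAMP response elements with JUN, lay between 4.12 and 4.29 in both normoxia groups. In hypoxia it read 6.80, 6.65 and 6.52 in FG and 4.14, 4.60 and 4.65 in L3.6pl. Arrays of FG hypoxia again stood above all others without overlap. The interaction was -2.25 ± 0.186 (adjusted p = 0.00259, with the block 0.00579). Its 3 other probe sets had the same sign at smaller size, -0.46, -1.05 and -0.11. Averaging all probe sets of a gene gave -0.97 for CREB5 (adjusted p = 0.057) and -2.24 for ATF3 (0.0754) without the block. With 1 array left out at a time, both genes kept their calls in 12 of 12 fits, at adjusted p up to 0.0166 for ATF3 and 0.0162 for CREB5.

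MAOA, the monoamine oxidase A of the outer mitochondrial membrane, had the higher hypoxia effect in L3.6pl. It read 7.12, 7.35 and 7.47 in L3.6pl normoxia and 8.77, 9.35 and 9.61 in L3.6pl hypoxia, while FG had 6.05, 5.95 and 6.27 in normoxia and 5.71, 5.72 and 5.97 in hypoxia. The L3.6pl hypoxia arrays were above all other arrays, and the 2 FG groups overlapped. The effect of hypoxia was 1.93 in L3.6pl and -0.29 in FG, an interaction of 2.22 ± 0.276 or 4.65-fold (adjusted p = 0.0289, with the block 0.00449), with 2.09 and 1.67 in the other probe sets.

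RAB31, a small GTPase of endosome and Golgi traffic, was lower in L3.6pl than in FG in normoxia and higher in hypoxia. The L3.6pl minus FG difference was -0.90, -0.75 and -0.76 in the normoxia pairs and 0.35, 0.31 and 0.24 in the hypoxia pairs. L3.6pl arrays read 7.76, 7.96 and 8.02 in normoxia and 9.14, 9.27 and 9.14 in hypoxia, and the 6 FG arrays lay between, from 8.66 to 8.96. No array of one L3.6pl group overlapped the other or the FG arrays. The interaction was 1.10 ± 0.134 (adjusted p = 0.0289, with the block 0.00757), and 1.43 and 1.19 in the other probe sets.

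SERTAD4 belongs to the SERTA-domain family, whose better-known members bind cyclin-dependent kinase 4 and E2F partners. Its FG normoxia arrays read 7.55, 7.07 and 7.36, and its FG hypoxia arrays 5.23, 5.18 and 5.35. L3.6pl stayed low, with 5.16, 4.71 and 4.98 in normoxia and 4.96, 4.62 and 5.06 in hypoxia. The FG normoxia arrays lay above all others, and the FG hypoxia arrays just above the L3.6pl arrays. The interaction of 2.01 ± 0.227 (adjusted p = 0.0193, with the block 0.00362) came with a hypoxia effect of -2.08 in FG and -0.07 in L3.6pl. The other 3 probe sets gave 1.10, 0.07 and 1.38, and the mean over probe sets was 1.14 (adjusted p = 0.0974 without the block).

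The calls of these 3 genes without the block rested on single arrays, unlike those of ATF3 and CREB5. SERTAD4 lost its call without FG hypoxia 1 or 2, L3.6pl hypoxia 1 or L3.6pl normoxia 2 or 3 (adjusted p up to 0.0886), and RAB31 without any of these or L3.6pl hypoxia 2 or FG normoxia 2 (up to 0.122). MAOA kept its call only without replicate 3 of FG in either oxygen state or without L3.6pl hypoxia 1 or 3, with adjusted p up to 0.114 otherwise. With the block, RAB31 alone of the 5 genes lost its call without a pair, normoxia 2 (adjusted p = 0.0523).

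**Figure D3:**
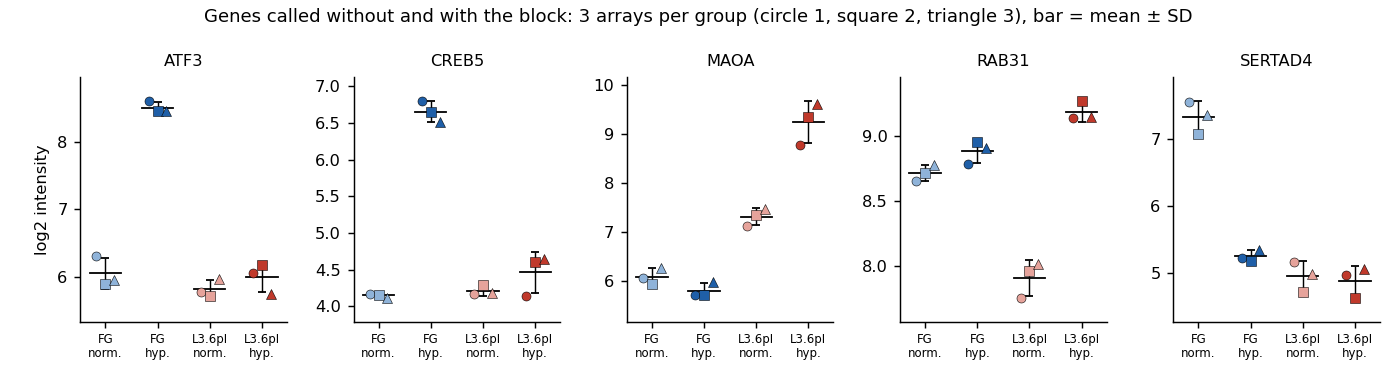
Log2 intensity of the 5 genes called without and with the block, by group; each point is 1 array (circle, square and triangle for replicates 1, 2 and 3) and bars are the mean ± SD of 3 arrays. The FG hypoxia arrays stand above all others for ATF3 and CREB5, the L3.6pl hypoxia arrays for MAOA and RAB31, and the FG normoxia arrays for SERTAD4.

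The sequences upstream of these 5 genes are shown because the HIF element is the obvious motif to look for in a hypoxia response, together with that of HAS3, a gene with one of the largest interactions in the L3.6pl direction with the block. Each is the 250 bases before 1 listed start of the gene, in the gene's own direction, from RefSeq (GRCh38.p14). Matches to ACGTG or GCGTG on either strand are in capitals. Where several starts were listed, the first by chromosome position was kept. It was not matched to the transcript that the probe set measures, so other starts of a gene were not searched. The windows are chr1:212565157-212565406 for ATF3, chr7:28412268-28412517 for CREB5, chrX:43656049-43656298 for MAOA, chr18:9708051-9708300 for RAB31, chr1:210232546-210232795 for SERTAD4 and chr16:69107290-69107539 for HAS3, all on the plus strand.
ATF3: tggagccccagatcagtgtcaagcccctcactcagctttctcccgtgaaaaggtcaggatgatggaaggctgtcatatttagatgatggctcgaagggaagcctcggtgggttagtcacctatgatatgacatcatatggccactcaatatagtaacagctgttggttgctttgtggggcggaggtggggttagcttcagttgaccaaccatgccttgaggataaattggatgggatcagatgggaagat
CREB5: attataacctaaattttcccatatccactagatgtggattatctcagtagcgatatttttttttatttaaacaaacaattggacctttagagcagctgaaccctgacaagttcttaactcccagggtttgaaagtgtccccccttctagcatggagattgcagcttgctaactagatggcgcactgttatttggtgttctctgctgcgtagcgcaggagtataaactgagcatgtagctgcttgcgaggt
MAOA: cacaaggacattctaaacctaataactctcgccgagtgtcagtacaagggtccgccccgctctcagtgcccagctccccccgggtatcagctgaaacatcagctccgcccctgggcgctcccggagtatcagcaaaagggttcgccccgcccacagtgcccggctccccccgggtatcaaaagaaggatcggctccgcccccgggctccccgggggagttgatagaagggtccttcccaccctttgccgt
RAB31: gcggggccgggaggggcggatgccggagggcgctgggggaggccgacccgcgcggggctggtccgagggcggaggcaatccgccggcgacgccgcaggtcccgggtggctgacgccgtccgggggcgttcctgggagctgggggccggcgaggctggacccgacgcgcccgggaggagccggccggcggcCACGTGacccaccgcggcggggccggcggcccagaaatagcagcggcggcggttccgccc
SERTAD4: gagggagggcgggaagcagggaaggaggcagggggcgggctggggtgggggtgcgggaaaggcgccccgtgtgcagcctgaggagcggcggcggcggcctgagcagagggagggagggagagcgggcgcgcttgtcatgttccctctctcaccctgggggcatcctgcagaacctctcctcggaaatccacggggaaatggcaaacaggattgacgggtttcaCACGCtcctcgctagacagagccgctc
HAS3: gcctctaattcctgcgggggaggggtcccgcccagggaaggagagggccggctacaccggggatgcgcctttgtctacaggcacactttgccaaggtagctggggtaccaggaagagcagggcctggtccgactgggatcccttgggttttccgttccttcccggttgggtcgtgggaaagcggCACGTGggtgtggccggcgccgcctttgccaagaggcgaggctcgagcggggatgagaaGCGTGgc
ATF3, CREB5 and MAOA held neither motif in this window. RAB31 and HAS3 each held the palindrome CACGTG, which matches ACGTG on both strands at overlapping positions, and SERTAD4 and HAS3 each held 1 GCGTG match. Windows of some other genes called with the block were also searched and are not printed. CEL, SMAD7 and EDN2 held neither motif, FOS held 1 GCGTG match and ID3 held 2. The interaction of CEL, 2.73, was larger than that of HAS3, 2.68. HAS3 held the most matches of all these windows, 3 with CACGTG counted on both strands.

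Among genes with a RefSeq promoter, 404 of 503, 161 of 200 and 15384 of all 19775, the motif shares can be set side by side. ACGTG lay in 21.5% of the promoters of genes with the higher effect in L3.6pl, in 19.3% of those with the higher effect in FG and in 20.8% of all promoters. For GCGTG the shares were 44.1%, 42.2% and 38.8%. TGANTCA, the AP-1 element, which FOS and JUN proteins bind, lay in 5.94%, 3.11% and 5.23%. The heat shock element GAANNTTC was in 2.97%, 5.59% and 4.86%, and an NF-kappaB element in 2.72%, 0 of 161 promoters and 1.87%. All motifs were sought on both strands in the 250 bases, and these shares are descriptions without a test.

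The 703 genes called with the block fell into several kinds. Of the 503 with the higher effect in L3.6pl, 164 had an interaction of at least 2-fold, and the median size was 0.86. In 270 of them the hypoxia effect was below 0 in FG and above 0 in L3.6pl, in 152 it was below 0 in both, and in 81 above 0 in both. At least 2-fold lower in FG with a change under 0.5 in L3.6pl were 98 genes, against 43 genes at least 2-fold higher in L3.6pl with a change under 0.5 in FG. Of the 200 with the higher effect in FG, 98 reached 2-fold, with a median size of 0.99. There, 48 genes were at least 2-fold higher in FG with a change under 0.5 in L3.6pl, and 9 were at least 2-fold lower in L3.6pl with such a small change in FG. None of the 703 genes had estimates of at least 2-fold in opposite directions in the 2 lines.

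Other probe sets of the same genes give a measure that the choice of 1 probe set did not use. The 703 genes had 974 further probe sets in 468 genes, and 760 of these (78.0%) had the interaction's sign of the chosen one, against 60.4% of 21316 further probe sets of all genes. The called genes described next passed with the block only, and, apart from ACKR3, CXCL8 and the brightest member of a list without calls in the first fit, were chosen after their values were seen. Where a standard error is given it comes from the limma fit with the block, and the adjusted p of that fit comes before the adjusted p without the block. Called genes given by their interaction alone had adjusted p of 0.00713 to 0.0494 with the block and 0.086 to 0.797 without it. Where 2 sets of 3 arrays are given for 1 line, normoxia comes first. The share of a list that was called stands against 3.55% of all genes called with the block, 2.54% toward L3.6pl and 1.01% toward FG. The lists were written with earlier results of these data known, and no set test was run.

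Immediate early genes, which growth factors and stress induce within minutes, held 2 calls among 19 measured members (10.5%, against 3.55% of all genes). Both had the higher effect in FG: ATF3 and FOS. FOS, the partner of JUN in AP-1, read 5.46, 7.17 and 6.38 in FG normoxia and 11.76, 11.72 and 11.00 in FG hypoxia. In L3.6pl it read 7.10, 7.31 and 7.56 and 10.08, 9.83 and 8.60. Hypoxia arrays lay above normoxia arrays in both lines without overlap, and the FG hypoxia arrays lay highest. The interaction was -2.97 ± 0.362 (adjusted p = 0.0123 with the block and 0.174 without). The list's median interaction was -0.27, 12 of 19 were negative, and EGR1 (-1.39), KLF4 (-1.22), IER3 (-1.16) and DUSP1 (-1.05) missed the threshold at adjusted p of 0.566, 0.0663, 0.0607 and 0.073 with the block. JUND, the brightest member not called, had 0.27.

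Among 13 measured genes of the BMP pathway and the ID family, 3 were called (23.1%, against 3.55% of all genes). All had the higher effect in FG (1.01% of all genes): ID3, SMAD7 and ID2, known targets of BMP or TGF-beta signalling. Of the 13, 5 were positive, and the median of -0.14 ran from -0.24 to 0.04 with 1 array left out. ID proteins lack a DNA-binding region and hold bHLH factors away from DNA. ID3 read 8.06, 9.06 and 9.19 in FG normoxia and 11.78, 12.37 and 11.62 in FG hypoxia, beside 8.57, 9.24 and 9.89 and 9.47, 10.07 and 9.90 in L3.6pl. Again FG hypoxia lay above all other groups, and the L3.6pl groups overlapped. Its interaction was -2.58 ± 0.205 (adjusted p = 0.00403 with and 0.131 without the block).

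SMAD7, the inhibitory SMAD that blocks TGF-beta and BMP receptors, had a like pattern. Its FG arrays read 6.06, 5.80 and 5.98 in normoxia and 7.62, 8.49 and 8.12 in hypoxia, and its 6 L3.6pl arrays lay between 4.68 and 5.20. The interaction was -1.96 ± 0.153 (adjusted p = 0.00403 and 0.0532). ID2 had -1.62 ± 0.207 (adjusted p = 0.0125 and 0.279), from effects of 2.32 in FG and 0.70 in L3.6pl. ID1, the brightest member not called, had -0.21 (adjusted p = 0.385 with the block), so the 3 measured ID genes named here were not alike in size. ID3 and SMAD7 kept their calls with each of the 6 pairs left out, and ID2 with 4 of them.

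CCN1 and CCN2 also had the higher hypoxia effect in FG. CCN1 and CCN2 encode secreted matricellular proteins whose genes respond to YAP, TGF-beta and serum. CCN1 read 6.37, 6.57 and 8.02 in FG normoxia and 10.50, 10.44 and 10.07 in FG hypoxia, and 7.98, 8.24 and 8.21 and 8.71, 8.92 and 8.71 in L3.6pl. Hypoxia arrays lay above normoxia arrays in both lines, and the FG hypoxia arrays lay highest. The interaction was -2.71 ± 0.365 (adjusted p = 0.0134 with and 0.0854 without the block). CCN2 had -1.83 ± 0.381 (adjusted p = 0.042 and 0.308), with effects of 2.57 in FG and 0.73 in L3.6pl, and kept its call with 1 of the 6 pairs left out. Its L3.6pl arrays were dim, at 3.12 to 4.47, and whether these lay above background was not tested, so the size is uncertain. CCN1 and CCN2 were 2 of the 3 calls among 19 mesenchymal markers and EMT factors (15.8%, median 0.04). The third, ITGA5, had the higher effect in L3.6pl, while vimentin (VIM) had 0.03 and TAGLN -2.22 (adjusted p = 0.185 with the block).

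The endothelin EDN2 was another call with the higher effect in FG. EDN2, a peptide that constricts vessels, read 5.30, 5.58 and 5.79 in FG normoxia and 9.63, 9.39 and 9.13 in FG hypoxia, against 5.11, 5.13 and 5.58 and 7.47, 6.68 and 6.57 in L3.6pl. Hypoxia arrays were above normoxia arrays in both lines, and those of FG were above those of L3.6pl. The interaction was -2.20 ± 0.167 (adjusted p = 0.00403 and 0.0633), and the call held with each pair left out. Its relative EDN1 had -2.45 but missed the threshold (adjusted p = 0.0869 with the block).

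STC1, the glycoprotein hormone stanniocalcin 1 and a known hypoxia-inducible gene, differed in its starting level. It read 7.82, 9.03 and 8.36 in FG normoxia and 9.72, 9.98 and 9.91 in FG hypoxia, while L3.6pl was already at 12.33, 13.14 and 12.80 in normoxia and at 12.59, 12.90 and 12.79 in hypoxia. The 6 L3.6pl arrays were above all FG arrays and overlapped with each other, at levels near the top of the array's range, where intensities can compress; this was not tested. The interaction was -1.46 ± 0.138 (adjusted p = 0.00691 and 0.315). STC1 and FGF2 (-0.92) were the 2 calls among 16 angiogenic and vasoactive factors (12.5%, median -0.30, 6 of 16 positive), and VEGFA, the main angiogenic HIF target, had -0.52 (adjusted p = 0.352). The other VEGFA probe sets, all dimmer, gave -2.37, -1.56 and -0.87. Averaging all VEGFA probe sets gave -1.33 (adjusted p = 0.799 in limma without the block).

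TCIM and CGA had the most negative estimates among the genes called with the block. TCIM, a regulator of WNT signalling that binds the beta-catenin inhibitor Chibby, read 5.42, 6.18 and 7.81 in FG normoxia and 10.85, 10.76 and 11.09 in FG hypoxia. In L3.6pl it read 2.61, 2.76 and 3.22 and 2.81, 3.38 and 5.12. FG hypoxia lay highest without overlap, the FG normoxia arrays came next, and the L3.6pl groups overlapped. The interaction was -3.53 ± 0.572 (adjusted p = 0.0227 and 0.283), kept with 2 of 6 pairs left out. Because 5 of the 6 L3.6pl arrays read 2.61 to 3.38, among the dimmest values, and whether these lay above background was not tested, the size and rank are uncertain. CGA, the common alpha subunit of the glycoprotein hormones, had 8.26, 8.27 and 9.86 and 12.54, 11.77 and 11.69 in FG and 5.75, 6.21 and 6.07 and 6.12, 5.51 and 5.83 in L3.6pl. The order of the groups was the same, again with overlap between the L3.6pl groups. Its interaction was -3.39 ± 0.395 (adjusted p = 0.0101 and 0.0708), kept with 4 of 6.

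Several secreted or stress-response genes had hypoxia effects above 0 in both lines, with the larger one in FG. GDF15, a stress-induced TGF-beta family cytokine, had effects of 5.08 in FG and 2.73 in L3.6pl (interaction -2.35 ± 0.459, adjusted p = 0.0345 and 0.751). GADD45A, a growth arrest gene, had 2.98 and 1.43 (-1.55 ± 0.158, adjusted p = 0.00713 and 0.467). These 2 were the calls among 14 p53 targets (14.3%), whose median was 0.16. The chemokine CXCL8 had 4.38 and 2.78 (-1.59 ± 0.288, adjusted p = 0.0289 and 0.673). AKAP12, a scaffold for protein kinase A, had 4.84 and 2.70 (-2.14 ± 0.373, adjusted p = 0.0271 and 0.371), with the same sign in all 4 of its other probe sets. For these 4 genes the 2 effects thus differed in size and not in sign.

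Further secreted proteins had the higher effect in FG. DKK1, an inhibitor of WNT receptors, had an interaction of -1.91 ± 0.218 (adjusted p = 0.00964 and 0.383) and was 1 of 2 calls among 15 WNT genes. The other call there, the receptor FZD7, had 1.09 in the L3.6pl direction. ADAMTS1, a matrix protease, had -1.92 ± 0.228 (adjusted p = 0.0111 and 0.0828), the only call among 18 proteases and plasminogen genes. TNC, the matrix glycoprotein tenascin C, had -1.79 ± 0.337 (adjusted p = 0.0312 and 0.0864), but only 1 of its 2 other probe sets had that sign. The L3.6pl arrays of TNC were dim, at 3.76 to 4.20, and whether these lay above background was not tested. Outside the secreted proteins, BCL2L11, a pro-apoptotic BCL2 relative, had -1.09, from effects of 2.17 in FG and 1.07 in L3.6pl. HEY1, a Notch target, had -1.46, from 0.32 in FG and -1.14 in L3.6pl. NTRK2, a neurotrophin receptor, had -1.27, from 0.07 in FG and -1.21 in L3.6pl. Each was the only negative call of its list with the block. For HEY1 and NTRK2 the larger effect was thus the negative one in L3.6pl. The FG arrays of NTRK2 read 3.32 to 3.76, among the dimmest values, and whether these lay above background was not tested.

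**Figure D4:**
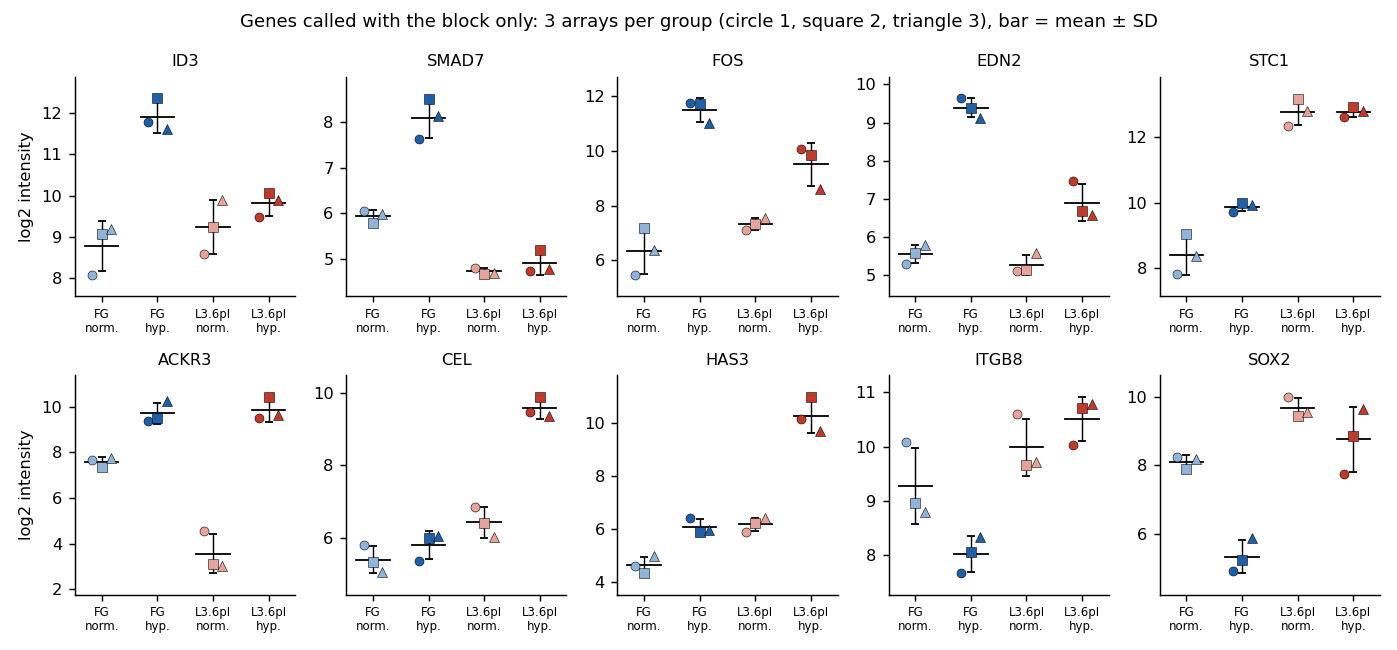
Log2 intensity of 10 genes called with the block only, by group; each point is 1 array (circle, square and triangle for replicates 1, 2 and 3) and bars are the mean ± SD of 3 arrays. The upper row has the higher hypoxia effect in FG and the lower row in L3.6pl.

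In the L3.6pl direction the highest estimate was that of ACKR3, the scavenging receptor for CXCL12. Its log2 intensity was 4.55, 3.12 and 3.00 in L3.6pl normoxia and 9.49, 10.43 and 9.62 in L3.6pl hypoxia. FG had 7.66, 7.35 and 7.76 and 9.36, 9.51 and 10.24. The hypoxia groups of the 2 lines overlapped, and the L3.6pl normoxia arrays were the lowest of all. The interaction of 4.17 ± 0.475 (adjusted p = 0.00964 and 0.0508) came with a difference between the lines in normoxia. Of the 3 L3.6pl normoxia arrays, 2 read among the dimmest values, and whether these lay above background was not tested, so the size and rank are uncertain. Its 2 other probe sets, which were dim, gave -0.52 and 0.38. CXCR4, the signalling receptor for the same ligand, had effects of 4.14 in FG and 3.51 in L3.6pl, an interaction of -0.63 (adjusted p = 0.466). The other CXCR4 probe sets gave -1.225 and -1.333.

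HAS3 and CEL reached levels in hypoxic L3.6pl cells that no other group had. HAS3, a hyaluronan synthase, read 5.88, 6.22 and 6.40 in L3.6pl normoxia and 10.18, 11.01 and 9.70 in L3.6pl hypoxia, and 4.61, 4.33 and 4.96 and 6.40, 5.89 and 5.96 in FG. The L3.6pl hypoxia arrays lay above all others, and the FG hypoxia and L3.6pl normoxia arrays overlapped. Its interaction was 2.68 ± 0.359 (adjusted p = 0.0134 and 0.0633), and its 1 other probe set gave -0.08. CEL, the bile salt-activated lipase of acinar cells, read 6.87, 6.41 and 6.03 and 9.46, 9.89 and 9.36 in L3.6pl and 5.83, 5.34 and 5.08 and 5.37, 6.01 and 6.07 in FG. Only the L3.6pl hypoxia arrays stood clear, above all others, and the FG groups overlapped. The interaction was 2.73 ± 0.201 (adjusted p = 0.00403 and 0.0532), 2.96 in its other probe set, and the call held with each pair left out. CEL was the only call among 9 acinar and endocrine genes, whose median was 0.04.

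Of 16 measured integrins and adhesion genes, 2 were called (12.5%, against 3.55% of all genes). Both lay toward L3.6pl, as did 503 of all 703 calls. The interaction was positive in 14 of them, against 52.2% of all genes, with a median of 0.31 against 0.01 over all genes. That median was 0.08 without FG normoxia 1 and 0.09, with 4 negative, without both normoxia replicates 1. ITGB8, the integrin subunit that activates latent TGF-beta, read 10.08, 8.96 and 8.79 in FG normoxia and 7.67, 8.06 and 8.34 in FG hypoxia, and 10.60, 9.66 and 9.71 and 10.04, 10.71 and 10.78 in L3.6pl. FG hypoxia lay below the other groups, which overlapped. The L3.6pl minus FG difference was 0.51, 0.69 and 0.92 in normoxia pairs and 2.36, 2.65 and 2.44 in hypoxia pairs, which did not overlap. The interaction was 1.77 ± 0.148 (adjusted p = 0.00449 and 0.371), with the same sign in all 4 other probe sets. ITGA5, the fibronectin receptor subunit, had 1.46 ± 0.24 (adjusted p = 0.0229 and 0.0633) and kept its call with 1 of 6 pairs left out. ITGB1, their brightest relative, had 0.05.

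Junction genes and keratins of epithelial cells held 2 calls each (11.1% and 18.2%, against 3.55% of all genes). All lay in the L3.6pl direction, as did 503 of all 703 calls. Among 18 junction genes they were PKP2, a desmosomal plakophilin, with 1.12 ± 0.187 (adjusted p = 0.0241 and 0.133), and CDH1, E-cadherin, with 0.71 ± 0.141 (adjusted p = 0.0377 and 0.826). Among 11 keratins they were KRT23 (1.79) and KRT15 (1.47). Among 20 mucins and classical subtype genes, CEACAM6 (1.96) and the mucin MUC1 (1.20) had the higher effect in L3.6pl and the trefoil factor TFF1 (-1.03) in FG. EPCAM and KRT18, the brightest members not called, had 0.05 and -0.16. MET, the hepatocyte growth factor receptor, had 0.80 ± 0.168 (adjusted p = 0.0437 and 0.379). CDH1, MET and MUC1 kept their calls with 1, 1 and 2 of 6 pairs left out.

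NT5E, LOXL2 and SLC22A4 had hypoxia effects above 0 in both lines, with the larger one in L3.6pl. NT5E, the ecto-nucleotidase CD73 that makes adenosine, had effects of 0.95 in FG and 2.88 in L3.6pl (interaction 1.93 ± 0.211, adjusted p = 0.00872 and 0.524), with the same sign in all 3 other probe sets. LOXL2, a collagen-crosslinking lysyl oxidase, had 1.38 and 2.85 (1.47 ± 0.295, adjusted p = 0.0386 and 0.435), but only 1 of its 3 other probe sets had that sign. SLC22A4, an organic cation carrier, had 1.18 and 3.02 (1.83). The soluble factors SPP1 (1.88), PTX3 (1.92) and CXCL3 (1.52) were also called in this direction. With HAS3 and TNC, LOXL2 made 3 calls among 17 matrix genes (17.6%, median 0.09), 2 toward L3.6pl and 1 toward FG.

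A further set had positive interactions with lower levels in hypoxic FG cells. SOX2, a transcription factor of stem and progenitor cells, read 8.25, 7.89 and 8.19 in FG normoxia and 4.90, 5.22 and 5.87 in FG hypoxia, and 10.01, 9.43 and 9.56 and 7.75, 8.87 and 9.65 in L3.6pl. Here FG hypoxia lay below all other groups, while the L3.6pl groups overlapped in a wide spread. The interaction was 1.88 ± 0.242 (adjusted p = 0.0125 and 0.395), kept with 3 of 6 pairs left out. GLUL, glutamine synthetase, had effects of -2.02 in FG and -0.15 in L3.6pl (1.87 ± 0.246, adjusted p = 0.013 and 0.086). VAV3 had -2.27 and -0.34 (1.94). ARID5B, a chromatin-binding cofactor, had -2.34 and -0.56 (1.78), and FLRT3, an adhesion protein, -1.65 and 0.19 (1.84).

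Several of these sizes rested on the probe set or on 1 array. With all probe sets of a gene averaged and the block kept, ACKR3 had 1.35, HAS3 1.30, GLUL 1.13, AKAP12 -1.23 and TNC -0.60, which stayed past the threshold (adjusted p between 0.0171 and 0.044). ITGB8 (0.85), SOX2 (0.61), LOXL2 (0.45), MET (0.17), PKP2 (0.73), ARID5B (0.44), GDF15 (-0.90), NTRK2 (-0.73) and FGF2 (-0.61) then lost their calls, at adjusted p from 0.0523 for FGF2 to 0.885 for MET. Without FG normoxia 1 the interaction was 0.43 for CDH1, and without L3.6pl hypoxia 3 it was -1.43 for GDF15 and -0.69 for BCL2L11. Without the 3 arrays that stood apart it was 1.24 for NT5E.

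Interferon-stimulated genes had 4 calls among 18 measured (22.2%, against 3.55% of all genes), in both directions. ISG15, a ubiquitin-like modifier, read 7.73, 8.53 and 8.94 in FG normoxia and 9.81, 9.55 and 9.42 in FG hypoxia, and 8.86, 9.05 and 9.51 and 8.37, 7.88 and 8.60 in L3.6pl. The FG hypoxia arrays lay above the FG normoxia arrays, and the L3.6pl hypoxia arrays below the L3.6pl normoxia arrays. The interaction was -2.05 ± 0.249 (adjusted p = 0.0123 and 0.131), from effects of opposite sign, 1.19 and -0.86. The antiviral GTPase MX1 had -1.29 and IFI44L, which was outside the naming rule, -1.10, while OAS1, an antiviral oligoadenylate synthetase, had 0.79 toward L3.6pl. The list's median was -0.29, with 14 of 18 negative. MHC class I presentation genes had no call among 13 (0 and 2 at an unadjusted p below 0.05 without and with the block) and a median of -0.0049, with B2M at -0.05.

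The classical HIF programme was called in neither fit. Of 28 measured HIF targets none was called by limma, with 4 at an unadjusted p below 0.05 without the block and 5 with it, and the median hypoxia effect was 1.95 in FG and 1.88 in L3.6pl, with a median interaction of -0.09. NDRG1, a hypoxia marker, had effects of 2.96 and 3.77 (interaction 0.82 ± 0.398, adjusted p = 0.336). Its interaction ran from 0.50 to 1.39 with 1 array left out, and without the normoxia 1 pair the block fit called it (1.35, adjusted p = 0.0261). In the other settings of the block fit at most 2 HIF targets were called, and the list's median was 0.10 without both normoxia replicates 1. LDHA had -0.20 ± 0.236 and KDM3A, a HIF-induced histone demethylase, -0.16 ± 0.292. The widest values were those of ANKRD37 (-1.34), SLC2A3 (-1.28) and EGLN3 (1.05). Among 20 glycolysis genes, none called and 2 at an unadjusted p below 0.05 in each fit, the median was -0.01 and GAPDH had -0.04 ± 0.113. Among 10 HIF subunits and hydroxylases, none called and 1 and 2 at such a p, HIF1A had -0.36 ± 0.169 and EPAS1 0.03 ± 0.289. A missed threshold does not show that the lines acted alike, and at the background of 3.55% lists of this size hold few calls.

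Cell cycle genes had the most one-sided values without any call in either fit. All 22 mitosis and G2/M genes had a negative interaction, with a median of -0.74, and 19 of 21 DNA replication genes were negative, with a median of -0.57. At an unadjusted p below 0.05 in limma there were 0 and 0 of them without the block and 13 and 4 with it. In the other settings of the block fit up to 4 replication genes were called, and no mitosis gene. The proliferation marker MKI67 had -1.09 ± 0.434 (adjusted p = 0.23 with the block), TOP2A -0.83 and RRM2 -1.0. Averaged over the mitosis list, FG normoxia arrays read 8.07, 10.24 and 10.16, so that replicate 1 stood apart. The L3.6pl minus FG difference was 1.11, 0.05 and -0.10 in normoxia pairs and -0.54, -0.16 and -0.35 in hypoxia pairs. Without FG normoxia 1 the list medians were -0.04 for mitosis (12 of 22 negative) and -0.07 for replication (14 of 21), and without both normoxia replicates 1 the mitosis median was -0.39 with 20 of 22 negative. In bulk cultures fewer cycling cells and less of these transcripts per cell cannot be told apart.

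Heat shock chaperones likewise had no call among 9 measured, with a median of -0.72 and 8 negative, and 1 member at an unadjusted p below 0.05 without the block and 5 with it. In the other settings of the block fit up to 4 of the 9 were called. HSPA6, an inducible HSP70, read 9.91, 10.56 and 5.26 in the L3.6pl hypoxia arrays, where replicate 3 stood far below the others, and its interaction was -1.33 ± 1.08 (adjusted p = 0.606). DNAJB1 had -1.60 (adjusted p = 0.225 with the block) and HSP90AA1 -0.48. Without L3.6pl hypoxia 3 the list median was -0.41.

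Mitochondrial respiration had 1 call among 18, the complex I subunit NDUFB3 (-0.59 ± 0.125, adjusted p = 0.0451), and a median of -0.30, which was -0.09 without FG normoxia 1. COXFA4L2, the HIF-induced cytochrome oxidase subunit isoform, had the widest value there, 1.97, and missed the threshold (adjusted p = 0.0753 with the block). NRF2 targets had 1 call among 17, GCLM of glutathione synthesis (-0.84), and a median of -0.34. Without FG normoxia 1 this median was -0.05 and the interaction was -0.35 for NDUFB3 and -0.49 for GCLM. Sterol and fatty acid synthesis, with 0 of 18 called by limma and 0 and 7 at an unadjusted p below 0.05 without and with the block, had a median of -0.27, with median hypoxia effects of -1.06 in FG and -1.38 in L3.6pl. That median ran from -0.65 without FG normoxia 1 to 0.05 without L3.6pl normoxia 1. Single calls also came from the JmjC histone demethylases (KDM6A, -0.73) and the pH regulators (the proton pump subunit ATP6V1B2, 0.99). No call came from the lists of lipid droplets, ribosome biogenesis, tRNA synthetases, unfolded protein response, DNA repair, the EGF receptor family or the stromal and blood cell markers, whose medians lay between -0.31 and 0.17 and which held 0 to 2 genes each at an unadjusted p below 0.05 without the block and 0 to 4 with it. In the other settings of the block fit these lists held at most 2 calls each.

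**Figure D5:**
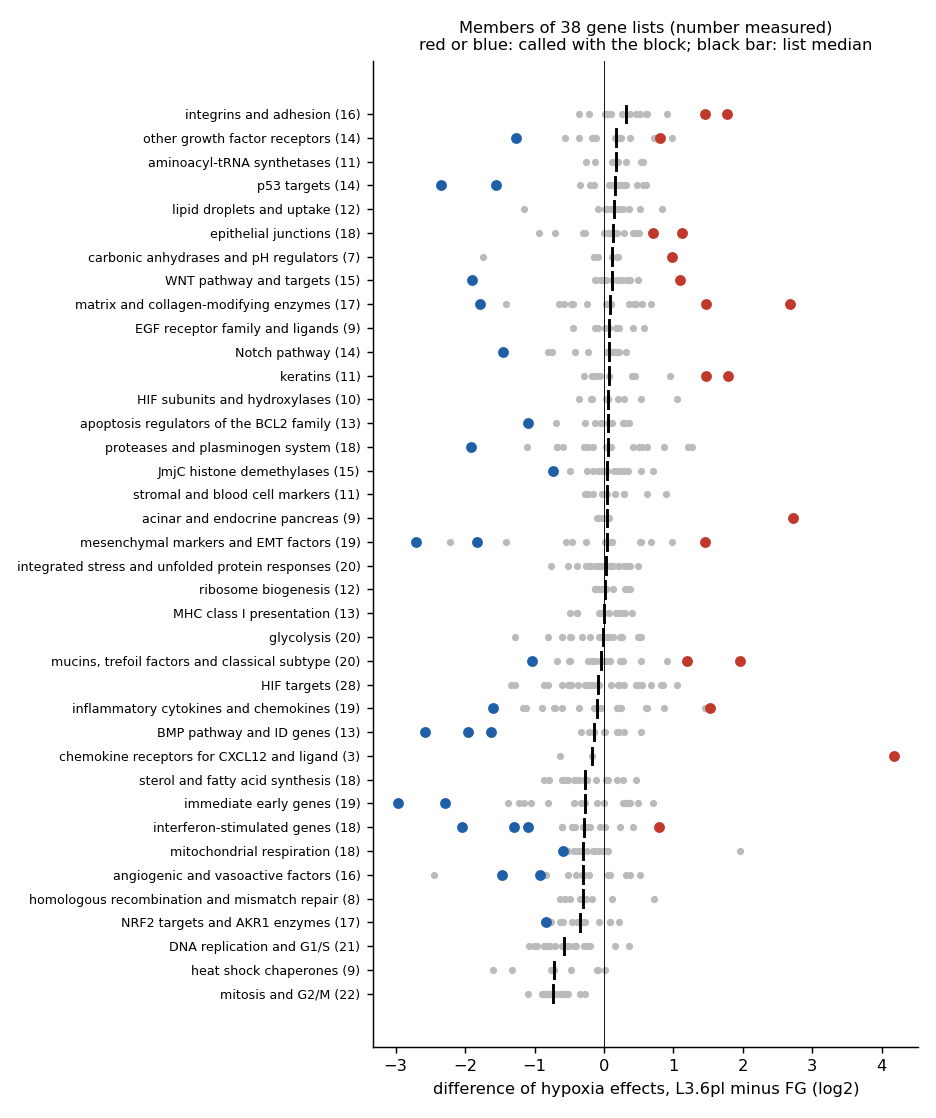
Interaction (log2, L3.6pl minus FG) of the members of 38 gene lists, 1 point per gene, with the number measured in brackets and a black bar at the list median. Red and blue points were called with the block toward L3.6pl and FG; the mitosis list lies wholly below 0 with no call, and integrins have the highest median, 0.31.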

How the data were processed

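Each of the 12 samples was hybridised to an Affymetrix array with 54675 probe sets, 3 for each of 4 groups. The authors deposited linear intensities after RMA, per the submitters' processing notes; the RMA version and the step back to linear values are not given in the sources used here. Array medians of the deposited intensities ran from 39.1 to 41.4, so no further normalization was applied, and log2 of the deposited intensity was taken here. Quantile methods such as RMA make arrays alike in overall distribution, so a change shared by most transcripts would not show.

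The platform annotation gave probe sets their genes. Leaving aside 62 control probe sets, 41091 had exactly 1 gene, 1801 several and 11721 none; for 10523 genes with more than 1 probe set the brightest was used, leaving 19775 genes. All arrays entered 1 limma 3.58.1 model (R 4.3.3) with a mean per group, and the interaction was moderated with eBayes (8 residual and 2.72 prior degrees of freedom) and genes were called below 0.05 after Benjamini-Hochberg adjustment over the whole table. A second fit added the 6 pairs of same-numbered FG and L3.6pl arrays of 1 oxygen state as a block (4 residual and 4.20 prior degrees of freedom). The pairing comes from the replicate numbers in the labels and was checked on deviations from group means, whose correlation was above 0.1 in all 6 pairs, at 0.358 to 0.735; the labels do not say what the numbers share. Numbers did not pair hypoxia with normoxia arrays of a line (r from -0.217 to 0.413). The fit without the block was checked on simulated data, with noise drawn independently for each gene and array. Such data hold no correlation within pairs, so they do not test the calls gained with the block.

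The contrast, the 38 gene lists and the genes were chosen with earlier results of these data known. Named are the genes called in both fits, from each list up to 2 called members and the brightest uncalled one, and 9 genes always; genes called with the block only (the 20 largest in each direction and the called list members) were added after their values were seen. Alternatives were cyclic loess, median centring, adding 16 before log2, the mean of all probe sets, single probe sets, array weights and other blocks. An intensity trend with robust moderation was another, as was leaving out arrays or pairs. In a filter on dim genes, those with a mean log2 intensity below 6 in all 4 groups were left out. The number of arrays limits the precision. Probe sets of gene families can cross-hybridise.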

Additional observations from a re-analysis of the deposited data

Results flagged for a closer look

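The 5 genes below were singled out because the hypoxia effects of the 2 lines differed by a test of the difference itself, limma's interaction without the block. The interaction was -2.30 for ATF3 (adjusted p = 0.00259) and -2.25 for CREB5 (adjusted p = 0.00259), both with the higher effect in FG. It was 2.22 for MAOA (adjusted p = 0.0289), 2.01 for SERTAD4 (adjusted p = 0.0193) and 1.10 for RAB31 (adjusted p = 0.0289), all with the higher effect in L3.6pl. With the block their adjusted p lay between 0.00362 for SERTAD4 and 0.00757 for RAB31.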

How the results depend on the processing

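The number of genes called depends most on the pairing of replicates. In limma without a block 5 genes passed, 3 with the higher hypoxia effect in L3.6pl and 2 in FG. With the replicate block of oxygen state by number it was 703 (503 in L3.6pl and 200 in FG), with number alone as the block 13 (8 and 5), and with the pairs as a random block 366 (244 and 122). Array weights gave 421 (234 and 187). Without the block, cyclic loess gave 12 (6 and 6), log2 of intensity plus 16, the filter on dim genes and the intensity trend 10 each (5 and 5), the mean of all probe sets 13 (7 and 6), all probe sets tested singly 26 (9 and 17), and leaving out the 3 arrays that stood apart 19 (11 and 8). Median centring gave 5 (3 and 2). Leaving out 1 array at a time gave 2 to 23 genes (0 to 6 in L3.6pl and 2 to 19 in FG).

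With the replicate block kept, alternatives chosen after seeing the data gave 564 with cyclic loess (351 and 213), 710 with median centring (531 and 179), 665 with 16 added (472 and 193), 692 with the filter (492 and 200), 514 with the mean of probe sets (348 and 166) and 616 with the intensity trend (417 and 199). With a pair left out the block gave 334 (219 and 115; hypoxia 1), 54 (31 and 23; hypoxia 2), 1239 (779 and 460; hypoxia 3), 271 (174 and 97; normoxia 1), 16 (8 and 8; normoxia 2) and 80 (43 and 37; normoxia 3). The cause of these differences was not tested. Each fit with a pair left out had 3 residual degrees of freedom, against 4 with all pairs.

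Of the 703 genes, all kept their sign in each setting that tests 1 probe set per gene (655 of them pass the filter), but only 691 did with the mean of probe sets. With a pair left out the sign could not change, because the pair differences of these genes did not overlap. The named genes called in either fit kept their sign throughout. Among single genes 27 values fell short of the threshold that the first fit passed, all of them for the 5 genes called there, and 719 newly passed it. With 3 arrays per group, an exact test could not go below 0.1 and small differences between the lines were not detectable.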
